A study of Mus musculus with 30 samples.

Results

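Liver gene expression under 1,4-dichlorobenzene (DCB, the mothball and deodorant chemical) was set side by side in mice that carry human drug-sensing receptors and in mice that carry none. The comparison was made of 6 of the 30 arrays in the series, 3 labelled DCB hCAR/hPXR and 3 labelled DCB CARko/PXRko, chosen by their sample titles. In hCAR/hPXR mice the nuclear receptors CAR and PXR are the human ones, and in CARko/PXRko mice both receptors are deleted. All animals were adult males on a C57BL/6J background, and both groups received 600 mg/kg DCB by daily oral gavage for 3 days. Corn oil arrays of the same genotypes (CO hCAR/hPXR and CO CARko/PXRko, 3 each) and wild type arrays (DCB WT and CO WT, 3 each), which the direct comparison does not use, are given beside it. Corn oil arrays of mice lacking PXR alone (CO PXRko, 3 arrays) are given for Slco1a4 only. The fit, whose spread is shared over all 30 arrays, also used mice given cyproterone acetate (CPA) at 160 mg/kg. These were CARko/PXRko mice at 3 days and hCAR/hPXR and wild type mice at 6 days. How the receptors were replaced or deleted is not given in the labels, nor is the age beyond adult. The stated group size is 5 mice and each group has 3 arrays. Nothing says that every array is a separate mouse, so a p-value reflects the spread among arrays within the groups of the series, which may be technical.

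CAR and PXR are ligand-sensing transcription factors of the hepatocyte that pair with RXR and bind response elements of drug-metabolizing genes. CAR is the receptor behind the classical induction of CYP2B enzymes by phenobarbital-like chemicals, and PXR is best known for the induction of CYP3A enzymes by steroids and antibiotics. Both also raise CYP2C enzymes, glutathione S-transferases, carboxylesterases and uptake transporters in rodent liver. The comparison asks which transcripts differ under DCB between livers with human receptors and livers with none, and the corn oil arrays show which of them differ without it.

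Values are log2 signals of one probe set per gene, so a difference of 1 is a 2-fold ratio. Differences are hCAR/hPXR minus CARko/PXRko means ± SE. A gene was called at a limma adjusted p under 0.05 over 12795 genes tested. The SE of a gene rests on a spread shared over all groups of the series, not on the compared arrays alone. It understates the spread where the compared arrays vary more than the other groups, and overstates it where they vary less. For Cyp2c54 the SE was 0.72, and the standard deviation of the DCB CARko/PXRko arrays was 2.05. For Cyp2b10 these were 0.77 and 0.21. The p-values share this limit. Levels of different genes are not set against each other, because probe sets differ in brightness. Liver was measured in bulk, so fewer cells of a type and less RNA per cell cannot be told apart.

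The labels were checked first against the receptor genes and the marker lists. Nr1i3, the gene of mouse CAR, read 6.56, 6.82 and 6.26 in DCB hCAR/hPXR and 6.51, 6.23 and 6.16 in DCB CARko/PXRko. In DCB wild type it read 9.75, 10.60 and 9.90, above every array of both engineered strains. Nr1i2, the gene of mouse PXR, read 4.25 to 4.97 on the 6 arrays, against 7.24, 7.85 and 7.69 in DCB wild type. Neither receptor gene passed the test between the engineered strains (Nr1i3 difference 0.25 ± 0.21, adjusted p = 0.543, and 0.042 against CARko/PXRko replicate 1 alone; Nr1i2 difference 0.35 ± 0.23, adjusted p = 0.443). The probe sets read mouse transcripts, so the human receptors themselves were not measured.

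Hepatocyte markers were bright on all 6 arrays, but DCB CARko/PXRko replicates 2 and 3 also held transcripts of other tissues. The median of 22 skeletal muscle markers lay 1.91 above the wild type corn oil mean on CARko/PXRko replicate 2 and 6.27 above it on replicate 3, against −0.02 on replicate 1 and 0.06, 0.07 and 0.17 on the hCAR/hPXR arrays. On replicate 3, 21 of the 22 markers exceeded the array median, against 10 on replicate 1 and on each hCAR/hPXR array, and the summed level (log2) was 17.04 against 10.08 to 10.13. Acta1, the actin of skeletal muscle fibres, read 5.39, 11.33 and 14.68 on the CARko/PXRko arrays and 5.56, 5.46 and 5.52 on the hCAR/hPXR arrays.

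CARko/PXRko replicate 3 further stood 5.23 above wild type corn oil in the median of 8 adrenal cortex markers, 4.74 in 6 white fat markers and 4.28 in 6 brown fat markers. Star, the cholesterol carrier of steroid-making cells, read 11.76 there and 6.82 and 6.49 on the other CARko/PXRko arrays, and Fabp4, the fat cell lipid carrier, read 14.26 against 8.21 and 10.17. Replicate 2 stood 3.17 above in 11 squamous epithelium markers. Sbsn, a gene of cornified epithelium, read 6.01, 9.38 and 10.03 on CARko/PXRko replicates 1, 2 and 3. On replicate 3 the squamous list as a whole was not raised. Its median there was −0.01, with 5 of the 11 markers above the array median, as on replicate 1, against 9 on replicate 2. The corn oil array CARko/PXRko replicate 2 stood 6.36 above in skeletal muscle. The median of 9 hepatocyte markers stayed between −0.26 and −0.01 on the 6 arrays. Values against CARko/PXRko replicate 1 alone, whose other-tissue markers lay near the corn oil level, are given for each gene whose printed ratio or difference moved by over 1.5 times.

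**Figure D1:**
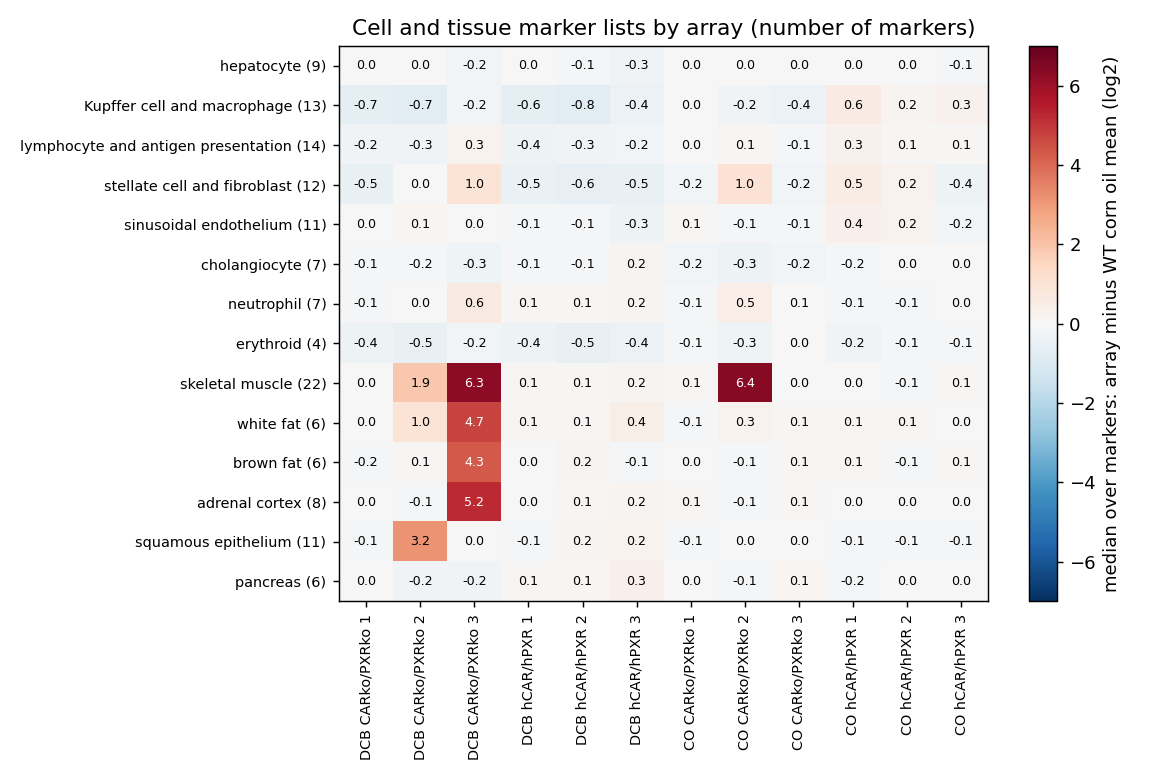
Cell and tissue marker lists (rows, number of markers in brackets) on 12 arrays (columns). Each cell is the median over markers of the array's signal minus the wild type corn oil mean, in log2 units. DCB CARko/PXRko replicate 3 stands 6.27 above in skeletal muscle and 5.23 above in adrenal cortex, while the DCB hCAR/hPXR arrays stay between 0.06 and 0.17 in skeletal muscle.

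Of the 12795 genes, 31 were called (0.242% of those tested), 20 higher (0.156%) and 11 lower (0.086%) with the human receptors. For each of the 31, the 3 hCAR/hPXR arrays did not overlap the 3 CARko/PXRko arrays, which was so for 1591 of all genes (12.4%, with 5.99% higher and 6.44% lower). The difference exceeded 2-fold in 20 of them, 14 higher and 6 lower. The median over all genes was −0.03. At an unadjusted p under 0.05 there were 1975 genes (15.4%). The 4 largest differences among the 20 were in cytochrome P450 genes. Of the 11 lower genes, 10 were on none of the 33 gene lists used here.

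The count depended on which arrays were used. Without CARko/PXRko replicate 3 there were 11 calls, 9 of them among the 31. Without the arrays that held skeletal muscle transcripts, which leaves CARko/PXRko replicate 1 alone in its group and assumes that it varies like the other groups, there were 4 calls, namely Cyp2b10, Tomm40l, Ces2a and Tmem223. All 31 genes kept their sign in that fit, and 27 were no longer called. When the fit used only the 6 arrays, with no spread shared from other groups, 1 gene was called, Cyp2b10.

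Cyp2b10, the phenobarbital-inducible cytochrome P450 that serves as the standard CAR target, read 12.87, 12.65 and 12.29 on the DCB hCAR/hPXR arrays. It read 6.00, 5.66 and 6.04 on the DCB CARko/PXRko arrays. The groups were far apart and each was tight. The difference was 6.70 ± 0.77 (104-fold, adjusted p = 3.15e-05), and 2 further probe sets of the gene were also higher. Their CARko/PXRko means of 4.50 and 4.97 were below each array's median signal (5.36 to 5.44 over all arrays), and no ratio is given for them. On the probe set used, the CARko/PXRko mean of 5.90 lay little above those medians, so the size of the 104-fold ratio is uncertain.

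Under corn oil the 2 genotypes had Cyp2b10 means of 6.41 and 6.46, a difference of −0.05 ± 0.77 (adjusted p = 1). The DCB difference exceeded the corn oil difference by 6.76 ± 1.09 (adjusted p = 0.027), and Cyp2b10 was the only gene called in that test of the difference of effects (0.00782% of those tested, with 868 genes, 6.78%, at an unadjusted p under 0.05). Cyp2b10 lost that call in 8 of the 12 fits with 1 array left out, namely without DCB CARko/PXRko replicate 2 or 3, DCB hCAR/hPXR replicate 1 or 2, CO CARko/PXRko replicate 2 or 3 or CO hCAR/hPXR replicate 2 or 3. From corn oil to DCB the CARko/PXRko mean moved by −0.56. In wild type mice DCB gave 12.08, 9.59 and 7.40, a wide range that lay below every hCAR/hPXR array and above every CARko/PXRko array. The wild type DCB mean was 3.98 ± 0.77 above the wild type corn oil mean (limma, adjusted p = 0.0083). Against CARko/PXRko replicate 1 alone the difference was 6.60 (adjusted p = 0.0134).

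A group of CYP2C enzymes, which hydroxylate arachidonic acid and many drugs, was higher with the human receptors. Of 21 listed CYP2B and CYP2C genes, 11 were tested, 6 were higher (54.5%, against 0.156% of all genes), 0 were lower and 5 did not pass the test. The median over the 11 was 0.88, against −0.03 over all genes. The 5 that did not pass lay between −0.66 and 0.88. Near-identical copies in this family can share probe signal, so the values of single CYP2C members are uncertain. The 6 called members differed by 0.69 to 6.70.

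Cyp2c54 read 12.95, 13.49 and 13.42 in DCB hCAR/hPXR and 10.93, 8.97 and 6.83 in DCB CARko/PXRko, a difference of 4.38 ± 0.72 (20.8-fold, adjusted p = 0.00438). Cyp2c37 read 13.43, 13.15 and 13.59 against 10.90, 9.94 and 7.01, a difference of 4.11 ± 0.67 (17.3-fold, adjusted p = 0.00438). Cyp2c50 read 14.03, 14.25 and 14.04 against 12.12, 10.11 and 8.84, a difference of 3.75 ± 0.57 (13.4-fold, adjusted p = 0.0019). In all 3 genes the hCAR/hPXR arrays lay close together and the CARko/PXRko arrays spread widely, with replicate 1 highest and replicate 3 lowest.

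The lowest arrays were those with the most other-tissue transcripts, and their part in the result was not tested. On the corn oil CARko/PXRko array that held skeletal muscle transcripts (replicate 2), Cyp2c54 read 8.42 and on the other CARko/PXRko corn oil arrays 10.71 and 11.39. Cyp2c37 read 8.44 there against 10.76 and 11.12, and Cyp2c50 read 10.53 against 12.33 and 12.77. Measured against DCB CARko/PXRko replicate 1 alone, which lay below every hCAR/hPXR array, the differences were 2.36 for Cyp2c54 (adjusted p = 0.368), 2.49 for Cyp2c37 (adjusted p = 0.0594) and 1.98 for Cyp2c50 (adjusted p = 0.282). Without replicate 3 only, all of them were called, at 3.34 (adjusted p = 0.0424), 2.97 (adjusted p = 0.0228) and 2.99 (adjusted p = 0.0228).

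Under corn oil the arrays of both strains overlapped in each of these CYP2C genes, and none was called. The corn oil differences were 2.01 ± 0.72 for Cyp2c54, 1.55 ± 0.67 for Cyp2c37 and 1.42 ± 0.57 for Cyp2c50, each with an adjusted p of 1. Without the corn oil array that held skeletal muscle transcripts the differences between means were 1.13, 0.71 and 0.75. From corn oil to DCB the hCAR/hPXR mean of Cyp2c54 moved by 1.11 upwards and the CARko/PXRko mean by −1.27. In wild type liver DCB did not raise them by the test (Cyp2c54 0.78, adjusted p = 0.811). Wild type arrays under DCB read 13.36, 13.70 and 13.18 for Cyp2c54 and 14.12, 14.27 and 13.85 for Cyp2c50, overlapping the hCAR/hPXR arrays in both genes. For Cyp2c37 they read 11.99, 13.24 and 11.98, with replicates 1 and 3 below every hCAR/hPXR array.

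Cyp2c55, a CYP2C enzyme of intestine and induced liver, read 12.57, 12.73 and 10.88 in DCB hCAR/hPXR and 10.36, 7.92 and 9.75 in DCB CARko/PXRko, a difference of 2.72 ± 0.51 (6.57-fold, adjusted p = 0.016). It was 1.70 against CARko/PXRko replicate 1 alone (adjusted p = 0.749), and not called without CARko/PXRko replicate 2 (adjusted p = 0.0742) or hCAR/hPXR replicate 2 (adjusted p = 0.0722). Its corn oil difference ran the other way, at −1.16 ± 0.51 (adjusted p = 1). The DCB difference exceeded the corn oil one by 3.88 (unadjusted p = 1.6e-05, adjusted p = 0.073). In wild type liver it rose by 3.60 with DCB (adjusted p = 0.0004). Cyp2c29, one of the most abundant CYP2C transcripts of mouse liver, read 14.29, 14.46 and 14.45 against 13.76, 13.58 and 13.79, a smaller difference of 0.69 ± 0.15 (1.61-fold, adjusted p = 0.0471). This gene stayed called in 2 of the 6 fits that left out 1 array of the compared groups.

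**Figure D2:**
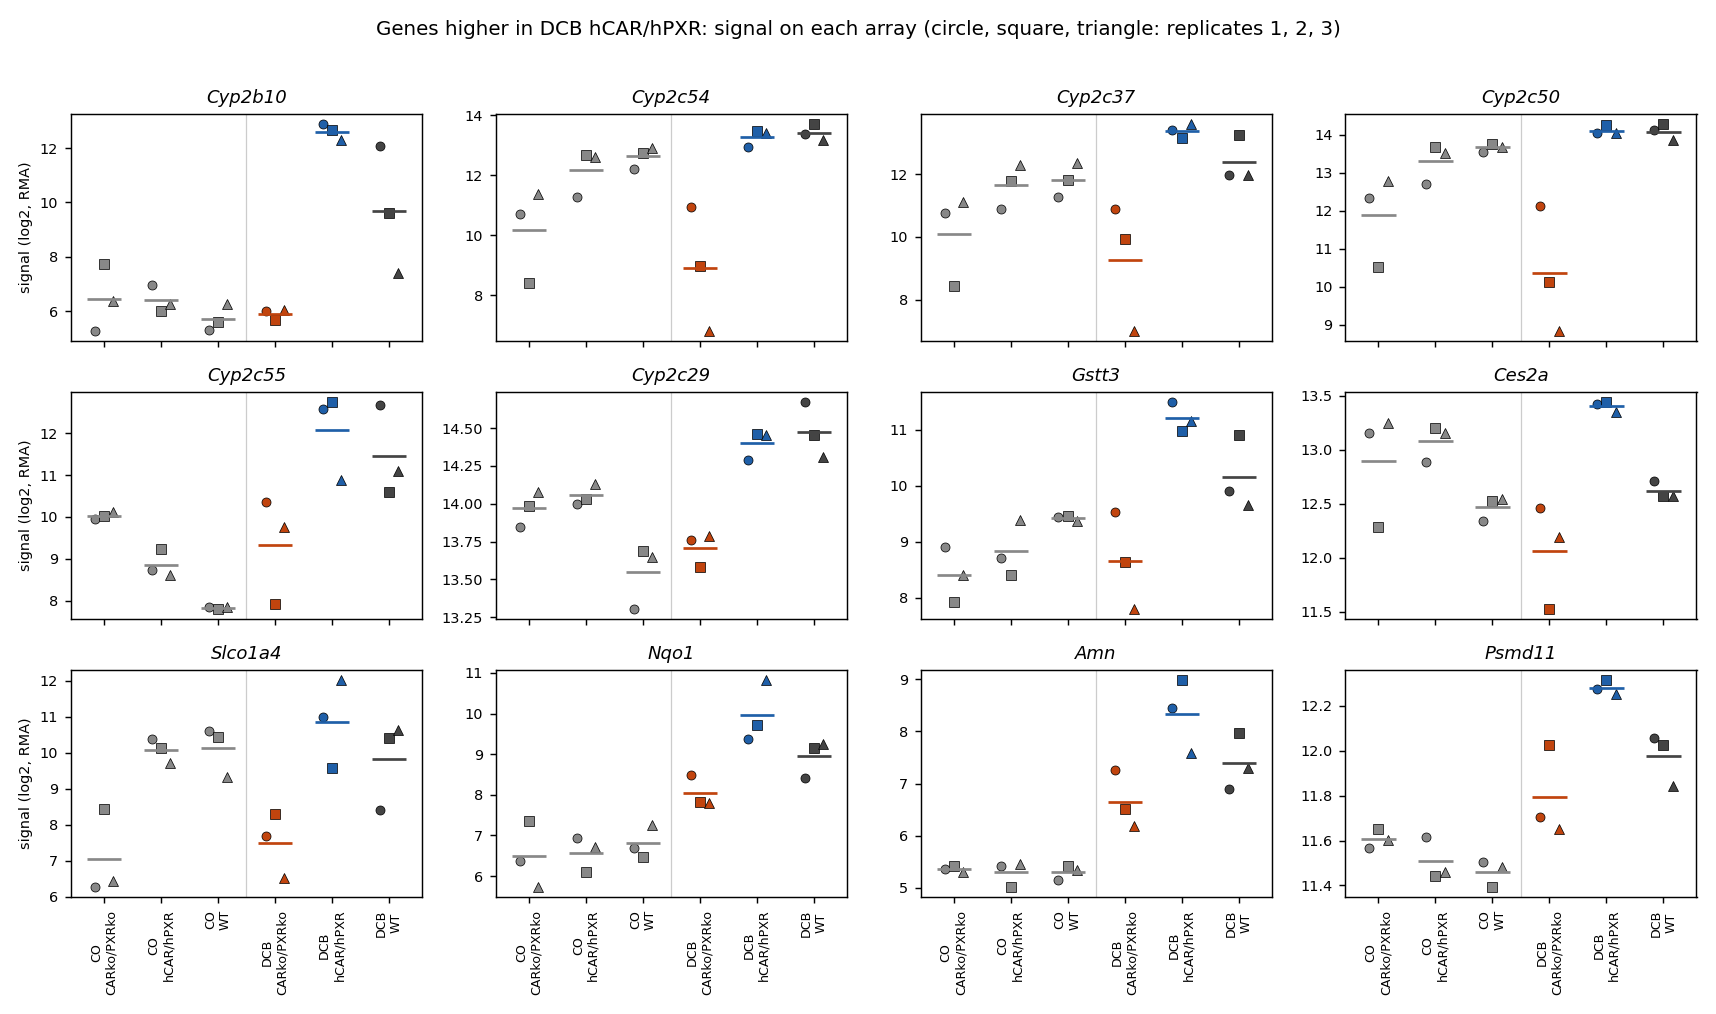
Signal (log2, RMA) of 12 genes that were higher in DCB hCAR/hPXR, by group on the horizontal axis, with a point per array (circle, square and triangle for replicates 1, 2 and 3) and a bar at the group mean. Cyp2b10 lies between 12.29 and 12.87 in DCB hCAR/hPXR and between 5.66 and 6.04 in DCB CARko/PXRko; the CARko/PXRko triangle is the lowest point of Cyp2c54, Cyp2c37, Cyp2c50 and Gstt3. The vertical axes differ between genes.

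In the RefSeq gene order of GRCm38.p6, Cyp2c37, Cyp2c54 and Cyp2c50 directly follow each other on chromosome 19, and Cyp2c54 stands between the others. The 250 bases before the starts of Cyp2c37 and Cyp2c50 are printed because the genes moved together. They come from RefSeq (GRCm38.p6), chr19:39992174-39992423 and chr19:40089429-40089678, both on the plus strand, and run 5′ to 3′ up to the base before the start. Capitals mark the 2 stretches of at least 20 bases that both windows hold, the longer of 44 bases. Aligned with free ends, they had 215 of 245 paired bases the same (87.8%), against 152 of 221 (68.8%) for Cyp2c37 and Cyp2c29.
Cyp2c37: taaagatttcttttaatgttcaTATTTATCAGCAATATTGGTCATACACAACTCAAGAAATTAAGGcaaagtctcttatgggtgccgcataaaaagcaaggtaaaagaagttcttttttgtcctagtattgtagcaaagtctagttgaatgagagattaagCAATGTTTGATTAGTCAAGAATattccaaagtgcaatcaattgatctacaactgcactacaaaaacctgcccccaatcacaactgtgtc
Cyp2c50: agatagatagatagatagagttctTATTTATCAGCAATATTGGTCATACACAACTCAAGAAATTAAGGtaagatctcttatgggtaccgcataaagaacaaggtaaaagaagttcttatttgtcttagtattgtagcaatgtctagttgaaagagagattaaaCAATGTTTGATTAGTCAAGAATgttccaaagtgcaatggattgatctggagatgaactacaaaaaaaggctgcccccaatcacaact

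The same window of Cyp2b10 (chr7:25897408-25897657, plus strand) is printed for the gene with the largest difference, with capitals on GCGTG, the core that the AHR complex binds, on either strand. It held GCGTG 2 times and none of AGGTCA or AGTTCA, the core hexamers that nuclear receptors such as CAR and PXR bind in pairs. The known phenobarbital-responsive enhancer of Cyp2b10 lies further upstream than this window. Windows of Cyp2c29 (chr19:39286835-39287084, plus strand) and Ces2a (chr8:104733753-104734002, plus strand) each held AGGTCA 1 time, shown in capitals.
Cyp2b10: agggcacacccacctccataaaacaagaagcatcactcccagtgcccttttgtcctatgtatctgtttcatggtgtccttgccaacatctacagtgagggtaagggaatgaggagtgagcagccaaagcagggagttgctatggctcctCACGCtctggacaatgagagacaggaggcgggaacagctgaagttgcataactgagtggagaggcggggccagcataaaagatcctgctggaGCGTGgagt
Cyp2c29: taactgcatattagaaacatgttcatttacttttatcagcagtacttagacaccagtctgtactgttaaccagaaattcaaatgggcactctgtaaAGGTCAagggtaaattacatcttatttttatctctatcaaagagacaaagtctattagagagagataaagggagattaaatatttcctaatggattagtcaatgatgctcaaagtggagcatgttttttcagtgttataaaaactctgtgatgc
Ces2a: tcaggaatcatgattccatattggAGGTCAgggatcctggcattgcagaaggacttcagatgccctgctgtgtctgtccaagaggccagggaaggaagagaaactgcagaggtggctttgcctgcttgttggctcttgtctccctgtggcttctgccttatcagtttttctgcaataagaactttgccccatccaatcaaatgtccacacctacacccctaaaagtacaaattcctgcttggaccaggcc

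RefSeq windows were found for 25 of the 31, 17 of genes higher and 8 of genes lower. AGGTCA, searched on both strands, was in 3 of the 17 and in 3 of the 8, against 11.7% of the windows of all genes tested. AGTTCA was in 2 and 3, against 8.9%. GCGTG was in 3 and 7, against 41.9%, and TGACNNNGC, the core of the antioxidant response element bound by NRF2, was in 1 and 3, against 11.7%. A match is only a run of letters in a short window, and windows without one say nothing of sites elsewhere.

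Beyond the P450 enzymes, the called genes with roles in drug handling were a glutathione transferase, a carboxylesterase, an uptake transporter and a quinone reductase. Gstt3, a theta class glutathione S-transferase, read 11.49, 10.97 and 11.15 in DCB hCAR/hPXR and 9.53, 8.64 and 7.80 in DCB CARko/PXRko. The difference was 2.55 ± 0.37 (5.84-fold, adjusted p = 0.00133). Under corn oil it was 0.42 ± 0.37 (adjusted p = 1). From corn oil to DCB the hCAR/hPXR mean moved by 2.37 and the CARko/PXRko mean by 0.25. The wild type DCB arrays, at 9.90, 10.90 and 9.65, lay between both genotypes and overlapped neither. Against CARko/PXRko replicate 1 alone it was 1.67 (adjusted p = 0.587).

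Ces2a, a carboxylesterase that cleaves ester drugs and lipids, read 13.42, 13.44 and 13.35 against 12.46, 11.53 and 12.20. The hCAR/hPXR arrays lay within a narrow range above all CARko/PXRko arrays. The difference was 1.34 ± 0.20 (2.53-fold, adjusted p = 0.00133). The corn oil difference was 0.18 ± 0.20 (adjusted p = 1). From corn oil to DCB the hCAR/hPXR mean moved by 0.32 and the CARko/PXRko mean by −0.84, and the wild type mean moved by 0.15 (adjusted p = 0.892). Ces2a was among the genes called without the arrays with skeletal muscle transcripts, at 0.94 (adjusted p = 0.0134).

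Slco1a4, which takes bile acids, steroids and digoxin-like drugs into hepatocytes, read 11.01, 9.57 and 12.01 against 7.70, 8.30 and 6.53. The difference was 3.36 ± 0.59 (10.2-fold, adjusted p = 0.0108). It was nearly as large under corn oil, 3.02 ± 0.59 (adjusted p = 0.074), and the difference of effects was 0.34 (adjusted p = 0.939). The DCB call was lost without CARko/PXRko replicate 3 (adjusted p = 0.112) or hCAR/hPXR replicate 3 (adjusted p = 0.103). Every hCAR/hPXR array lay above every CARko/PXRko array under corn oil as well, as 9.48% of all genes did in one or the other direction. The wild type means were 9.82 under DCB and 10.13 under corn oil, where the hCAR/hPXR mean was 10.07 and the CARko/PXRko mean 7.05. Mice lacking PXR alone, measured under corn oil only, had a mean of 7.26.

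Nqo1, the quinone reductase that both NRF2 and AHR raise, read 9.37, 9.71 and 10.82 against 8.48, 7.83 and 7.79. The difference was 1.93 ± 0.36 (3.81-fold, adjusted p = 0.0144), with none under corn oil (0.09 ± 0.36). The call was lost without CARko/PXRko replicate 2 (adjusted p = 0.0571) or 3 (adjusted p = 0.112). It was also lost without hCAR/hPXR replicate 3 (adjusted p = 0.145). Unlike Cyp2b10, Nqo1 was above its corn oil mean of 6.48 on every CARko/PXRko array under DCB. Amn, which anchors the cubilin receptor in the membrane, read 7.58 to 8.98 in DCB hCAR/hPXR against 6.18 to 7.25 in DCB CARko/PXRko, with corn oil means of 5.30 and 5.36. Its difference was 1.69 ± 0.28 (3.22-fold, adjusted p = 0.0051) and 1.08 against replicate 1 alone (adjusted p = 0.749). DCB also raised it in wild type liver by 2.08 (adjusted p = 0.00028).

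Of the called genes, 2 were also called without DCB. Tomm40l, a mitochondrial import channel gene that directly follows Nr1i3 on chromosome 1, read 9.52, 9.35 and 8.96 against 7.23, 7.26 and 7.46. Its difference was 1.96 ± 0.20 under DCB (adjusted p = 3.9e-06) and 2.12 ± 0.20 under corn oil (adjusted p = 8.74e-07). The wild type DCB arrays, at 8.55, 8.42 and 8.23, lay between both strains and overlapped neither. Apoa2, which follows Tomm40l, was 0.21 ± 0.07 higher and did not pass the test (adjusted p = 0.223).

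Tmem223, a gene of an inner mitochondrial membrane protein on chromosome 19, was lower with the human receptors. It read 8.13, 7.74 and 7.65 against 9.71, 9.73 and 9.75. The difference was −1.89 ± 0.13 (3.71-fold, adjusted p = 3.86e-09), and under corn oil it was −2.03 ± 0.13 (adjusted p = 8.26e-10). Here the wild type arrays, at 9.56, 9.34 and 9.54, lay just below those of CARko/PXRko. These were the 2 genes called under corn oil (0.0156% of those tested), where 373 genes had an unadjusted p under 0.05 (2.92%).

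**Figure D3:**
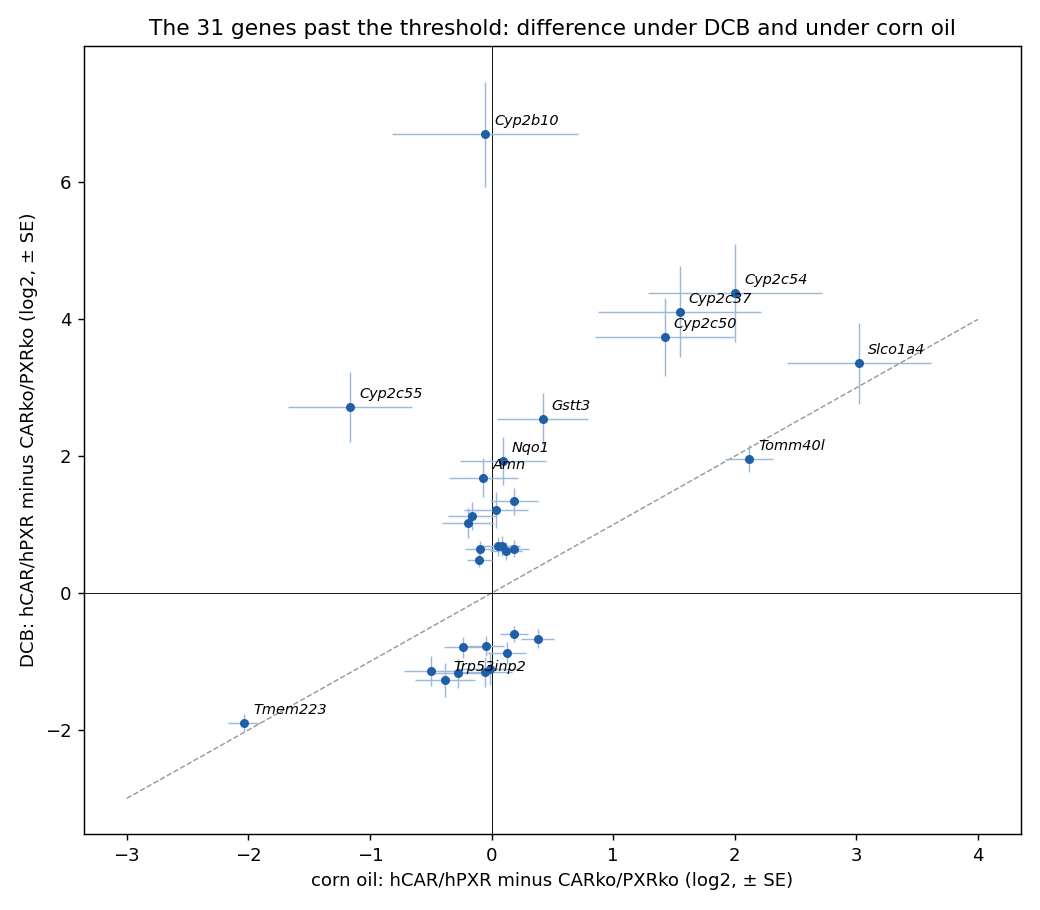
Difference hCAR/hPXR minus CARko/PXRko under DCB (vertical axis) against the same difference under corn oil (horizontal axis) for the 31 called genes, in log2 units with bars of 1 SE each way; the dashed line marks equal differences. Tomm40l, Tmem223 and Slco1a4 lie by the line, Cyp2b10 lies at 6.70 under DCB and −0.05 under corn oil, and 23 of the 31 lie within 0.5 of 0 on the corn oil axis.

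The other genes higher with the human receptors differed less. The largest were Exosc8, a subunit of the RNA exosome, at 10.10, 9.71 and 10.75 against 9.34, 8.79 and 8.79 (difference 1.21 ± 0.26, adjusted p = 0.0498), and Themis, a T cell signalling gene, at 5.48, 6.19 and 6.19 against 4.90, 5.03 and 4.53 (difference 1.13 ± 0.20, adjusted p = 0.0111). The other Exosc8 probe set, much dimmer with means of 5.74 and 5.77, differed by −0.03. Dnah1, a dynein heavy chain of motile cilia, read 5.60, 6.10 and 6.04 against 5.22, 4.87 and 4.58 (difference 1.02 ± 0.22, adjusted p = 0.0412). The CARko/PXRko means of Themis and Dnah1 lay under the array medians, where a signal may be background, so the sizes of these differences are uncertain.

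Of the remaining 5, all but Psmd11 differed by 0.61 to 0.68. Nsfl1c, a cofactor of the p97 segregase that hands ubiquitinated proteins to the proteasome, read 11.94, 11.95 and 11.91 against 11.22, 11.39 and 11.27 (difference 0.64 ± 0.12, adjusted p = 0.0181), and in wild type liver DCB raised it by 0.73 (adjusted p = 0.0027). Banp, a nuclear matrix and chromatin protein, differed by 0.65 (adjusted p = 0.0161), Rassf1, a Ras-association domain tumour suppressor, by 0.61 (adjusted p = 0.0412) and Ccdc187 by 0.68 (adjusted p = 0.023), which was 0.31 against CARko/PXRko replicate 1 alone. Another Rassf1 probe set differed by 0.19, and those with means under the array medians by 0.02 and −0.33.

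Besides Tmem223, 10 genes were lower with the human receptors, with differences from −1.27 to −0.60. Trp53inp2, an autophagy factor and nuclear receptor coactivator, read 10.18, 10.46 and 9.21 against 11.05, 11.16 and 11.45 (difference −1.27 ± 0.25, adjusted p = 0.0195). Snx17, a sorting nexin that recycles LDL receptor family members, read 9.35, 8.87 and 9.12 against 9.97, 9.93 and 10.95 (difference −1.17 ± 0.21, adjusted p = 0.0132). Pik3c3, the catalytic subunit of the lipid kinase that starts autophagosomes, read 6.39, 6.64 and 6.56 against 6.86, 7.21 and 7.32 (difference −0.60 ± 0.12, adjusted p = 0.0181). Against CARko/PXRko replicate 1 alone the difference of Pik3c3 was −0.33 (adjusted p = 0.755). CARko/PXRko replicate 3, the array with the most other-tissue transcripts, was the highest of its group in 9 of the 11 lower genes. It was the lowest of its group in 14 of the 20 higher genes. The shares over all genes were not computed.

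Inppl1, a phosphoinositide phosphatase that dampens insulin signalling, differed by −0.79 ± 0.16 (adjusted p = 0.0195). Cast, the calpain inhibitor calpastatin, read 8.05, 8.26 and 7.48 against 8.66, 8.70 and 8.76 (difference −0.78 ± 0.15, adjusted p = 0.0181). The other probe sets of Cast differed by −0.78 and −0.04. Agtpbp1, a carboxypeptidase that trims polyglutamate from tubulin, differed by −1.15 (adjusted p = 0.0189), or −0.67 against replicate 1 alone, and Pofut2, which fucosylates thrombospondin repeats, by −1.11 (adjusted p = 0.0498). The other Agtpbp1 probe sets had means under the array medians and differed by −0.31 and 0.19. Those of Pofut2 differed by −0.42, −0.70 and −0.15.

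Tshz1, a zinc finger transcription factor, differed by −0.87 (adjusted p = 0.0144), and Jade1, a partner of the HBO1 histone acetyltransferase, by −0.66 (adjusted p = 0.0333), or −0.40 against replicate 1 alone. Other Jade1 probe sets differed by −0.59, −0.25 and −0.10. P2ry14, a receptor for UDP-sugars, differed by −1.14 (adjusted p = 0.0161), or −0.57 against replicate 1 alone, but its hCAR/hPXR mean of 4.08 lay under the array medians. In 7 of the 11 lower genes hCAR/hPXR replicate 3 was the lowest array of its group. The share over all genes was not computed. Of the 11, 0 were among the 16 genes that DCB lowered in wild type liver. These 16 were only 0.125% of all genes tested, so the 0 says nothing about the lower genes.

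Wild type livers, whose arrays enter neither side of the comparison, were read against both strains. DCB raised 78 genes in wild type liver (0.61% of those tested) and lowered 16 (0.125%). These 94 calls became 37, 78 and 115 without DCB WT replicates 1, 2 and 3, and 50, 48 and 62 without CO WT replicates 1, 2 and 3. Of the 20 higher genes, 7 were among the 78, which is 35% of the former and 8.97% of the latter. They were Cyp2b10, Cyp2c55, Cyp2c29, Nqo1, Amn, Nsfl1c and Psmd11. The mean of the wild type DCB arrays lay between the means of both strains for 27 of the 31 genes. It was nearer hCAR/hPXR in 13 of the 20 higher genes and nearer CARko/PXRko in 10 of the 11 lower ones. The 31 genes were chosen because the DCB means of the strains differ, so a wild type mean between them follows in part from that choice. The shares over all genes were not computed, so these counts cannot serve as separate evidence for the calls.

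Corn oil means were set beside the DCB means of the 31 genes, which were chosen because those DCB means differ. The counts of direction below therefore follow in part from that choice, and their share over all genes was not computed. All 20 higher genes had hCAR/hPXR means above their own corn oil mean, while the CARko/PXRko mean lay below its own in 12 and above it in 8. In the lower genes the hCAR/hPXR mean lay below its own corn oil mean in 10 of 11, and the CARko/PXRko mean above its own in 6. The corn oil difference between strains was under 0.5 in 23 of the 31 genes and at least 0.5 in 8. For 28 of the 31 the DCB and corn oil differences were apart at an unadjusted p under 0.05 (limma), against 6.78% of all genes. That count also follows in part from the choice by the DCB difference. After adjustment over all genes the differences were apart for Cyp2b10 alone.

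Of the 33 gene lists, 8 held a called gene and 25 held none, and 18 of the 31 called genes were on no list. Among 31 proteasome subunits, 1 was called, where 0.242% of all genes were, and 30 did not pass the test. The called gene was Psmd11, a subunit of the regulatory particle's lid. It read 12.28, 12.31 and 12.25 in DCB hCAR/hPXR against 11.71, 12.02 and 11.65 (difference 0.49 ± 0.10, adjusted p = 0.0365). All 31 differences were above 0, from 0.08 to 0.68 with a median of 0.45.

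In 24 of the 31 subunits (77.4%) every hCAR/hPXR array lay above every CARko/PXRko array, against 5.99% of all genes. Psmc1, an ATPase of the base, read 11.35, 11.36 and 11.61 against 10.87, 11.11 and 10.63 (difference 0.57, adjusted p = 0.0927). Psma7, an alpha ring subunit of the core, read 11.95, 11.82 and 12.18 against 11.17, 11.63 and 11.21 (difference 0.65, adjusted p = 0.103), and Psmb4 of the beta ring differed by 0.47 (adjusted p = 0.0942). The median was 0.02 under corn oil. It was 0.42 against CARko/PXRko replicate 1 alone and 0.61 for DCB against corn oil in wild type liver, where DCB raised 11 of the 31 subunits, against 0.61% of all genes.

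Among NRF2 target genes, the antioxidant and NADPH-supplying set, 25 were tested, 1 was higher (Nqo1, against 0.156% of all genes) and 24 did not pass. Their median was 0.33, and 0.03 against CARko/PXRko replicate 1 alone. Srxn1, which repairs peroxiredoxins, missed the threshold narrowly at 11.70, 11.79 and 11.37 against 10.73, 10.64 and 10.08 (difference 1.14 ± 0.25, adjusted p = 0.0509). Cbr3, a carbonyl reductase, read 11.81, 12.67 and 12.22 against 10.99, 10.22 and 10.96 (difference 1.51 ± 0.38, adjusted p = 0.103). Both strains were far above the corn oil means of 6.41 and 6.39 in Cbr3, and DCB raised it by 5.11 in wild type liver (adjusted p = 2.35e-08). Gsr, glutathione reductase, differed by 0.65 (adjusted p = 0.173), or 0.24 against replicate 1 alone. In wild type liver DCB raised 14 of the 25, against 0.61% of all genes.

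AHR targets gave 1 call in 5, again Nqo1, where 0.242% of all genes were called. Their median was 1.04, which became −0.04 against CARko/PXRko replicate 1 alone. Cyp1a1, the most inducible AHR target, read 8.71, 6.99 and 11.68 in DCB hCAR/hPXR and 8.49, 6.29 and 7.29 in DCB CARko/PXRko. The groups overlapped and the difference of 1.77 ± 0.74 did not pass (adjusted p = 0.272); it was 0.64 against replicate 1 alone. Cyp1a2, its constitutive relative, read 13.78, 13.93 and 13.86 against 13.91, 11.57 and 12.96 (adjusted p = 0.227), and was −0.06 against replicate 1 alone. Cyp1b1 differed by −0.86 (adjusted p = 0.213), with CARko/PXRko replicate 3 highest at 7.46, and by −0.043 against replicate 1 alone.

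None of the 4 CYP3A enzymes tested, the classical PXR targets, was called, with a median of 0.53. Cyp3a11, the main CYP3A of mouse liver, read at least 14.92 on each hCAR/hPXR array against 14.70, 14.69 and 14.39, a difference of 0.36 ± 0.09 (1.28-fold, adjusted p = 0.103). Its arrays did not overlap, but all lay close to the highest signals of any probe set, 15.21 to 15.34, where a signal can saturate. Cyp3a44, a CYP3A more abundant in female liver, read 5.92, 6.02 and 6.93 against 5.26, 5.36 and 5.01 (adjusted p = 0.069). Its CARko/PXRko values lay under the medians of their arrays, where a signal may be background, so the size of the difference is not given.

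Other conjugation and transport lists held 1 called gene or none, where 0.242% of all genes were called. Against CARko/PXRko replicate 1 alone their medians lay near 0. Glutathione S-transferases had 1 of 21 higher (Gstt3) and a median of 0.30, or 0.08 against replicate 1 alone. Gstz1, the maleylacetoacetate isomerase, differed by 0.39 (adjusted p = 0.24), or 0.19 against replicate 1 alone. The 21 glucuronidation and sulfation genes had 0 called and a median of 0.33, or 0.03 against replicate 1 alone, with Ugt2b35, a bile acid and steroid glucuronosyltransferase family member, at 0.60 (adjusted p = 0.205) and 0.39. Carboxylesterases had 1 of 9 (Ces2a) and a median of 0.31, or −0.0062 against replicate 1 alone. Hepatic transporters had 1 of 20 (Slco1a4) and a median of 0.13, or −0.03 against replicate 1 alone. Heme genes had 0 of 14 called, with Blvrb, which reduces biliverdin, at 0.61 (adjusted p = 0.23), and bile acid synthesis 0 of 13, with Baat, which couples bile acids to taurine, at 0.64 (adjusted p = 0.226) and 0.40 against replicate 1 alone.

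**Figure D4:**
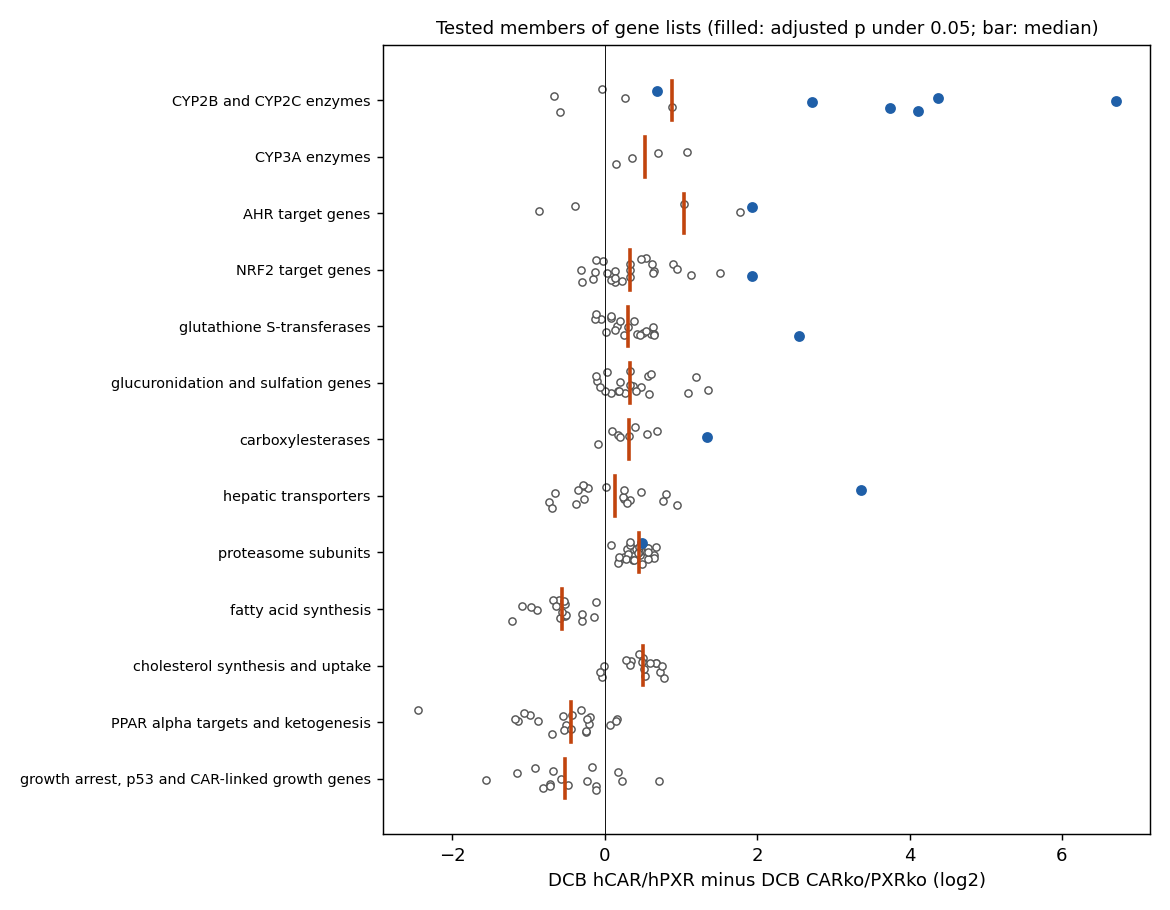
Difference DCB hCAR/hPXR minus DCB CARko/PXRko (log2, horizontal axis) of each tested member of 13 gene lists; filled points were called and red bars are list medians. CYP2B and CYP2C enzymes spread from −0.66 to 6.70, while the 31 proteasome subunits lie between 0.08 and 0.68.

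Acute phase genes gave 0 calls among 22 and a median of −0.01, and the orosomucoids, plasma lipid and drug carriers, did not pass. Orm2 read 11.11, 10.37 and 12.94 against 9.51, 7.72 and 6.14, a difference of 3.69 ± 0.99 (adjusted p = 0.119), or 1.97 against replicate 1 alone. Orm3 read 8.18, 7.15 and 9.60 against 6.47, 6.12 and 6.21 (difference 2.04, adjusted p = 0.0943), and Orm1 differed by 0.62 (adjusted p = 0.183), or 0.24 against replicate 1 alone. These genes are close paralogs and may share probe signal. Saa2, serum amyloid A, overlapped between the groups, at 9.11, 6.60 and 13.26 against 7.27, 5.43 and 8.15 (adjusted p = 0.253), with hCAR/hPXR replicate 3 highest as in Orm2.

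None of the lists of lipid and glucose metabolism held a called gene. Fatty acid synthesis genes had a median of −0.56 over 17, with every member below 0 and a median of −0.95 against replicate 1 alone, and PPAR alpha targets a median of −0.45 over 21 that became 0.18 against CARko/PXRko replicate 1 alone. Plin2, the lipid droplet coat protein, read 12.13, 12.10 and 11.59 against 12.37, 13.45 and 13.18 (difference −1.06 ± 0.31, adjusted p = 0.155; −0.43 against replicate 1 alone). Pdk4, which blocks pyruvate oxidation in muscle and liver, read 7.99, 7.49 and 7.23 against 7.51, 10.50 and 12.04 (difference −2.45, adjusted p = 0.239), highest on the arrays with skeletal muscle transcripts, and was 0.06 against replicate 1 alone. Cholesterol synthesis and uptake genes had a median of 0.50 over 17 and −0.37 against replicate 1 alone.

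Growth and stress genes had no call either. The 16 growth arrest, p53 and CAR-linked growth genes tested ran from −1.55 to 0.71, with Gadd45b the highest. Their median was −0.53, or 0.08 against CARko/PXRko replicate 1 alone. Gadd45b, a growth arrest gene that CAR activators raise early, read 9.27, 8.30 and 8.75 against 6.91, 8.51 and 8.75 (difference 0.71, adjusted p = 0.328; 1.86 against replicate 1 alone, adjusted p = 0.143). Pcna, the DNA polymerase clamp, read 10.71, 10.42 and 11.11 against 10.10, 10.02 and 10.40 (difference 0.57, adjusted p = 0.195), in a cell cycle list of 23 with a median of 0.12, or 0.02 against replicate 1 alone. Dusp1, a phosphatase raised by glucocorticoids, read 8.18, 7.70 and 7.84 against 9.33, 9.31 and 9.10 (difference −1.34, adjusted p = 0.183). Klf9, another glucocorticoid-responsive gene, differed by −1.05 (adjusted p = 0.133), and Stat5b, the transducer of growth hormone, by −0.55 (adjusted p = 0.115). The 12 glucocorticoid-responsive genes tested ran from −1.34 to 1.41. Their median was −0.31, or 0.03 against replicate 1 alone.

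Of the 14 marker lists, which cover liver cell types and other tissues, 0 held a called gene. A list without a call can still differ. Of 21 skeletal muscle markers tested, 18 were lower at an unadjusted p under 0.05 (limma), against 1164 of all 12795 genes. Their median was −2.86, or 0.05 against CARko/PXRko replicate 1 alone. The median was 0.02 over 13 Kupffer cell and macrophage genes and −0.26 over 11 sinusoidal endothelium genes. Stellate cell and fibroblast markers had a median of −0.67 over 12, and −0.23 against CARko/PXRko replicate 1 alone. Pdgfrb, the growth factor receptor of stellate cells, read 7.48, 7.34 and 5.91 against 7.74, 7.79 and 9.08 (difference −1.29, adjusted p = 0.224; −0.83 against replicate 1 alone). The whole stellate list stood 0.97 above wild type corn oil on CARko/PXRko replicate 3 and −0.50 on replicate 1, beside −0.46, −0.55 and −0.52 on the hCAR/hPXR arrays.

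Leaving out single arrays moved the number of calls more than any scaling did. It was 210 without CARko/PXRko replicate 1, 18 without replicate 2 and 11 without replicate 3 of that group, and 159, 35 and 15 without hCAR/hPXR replicates 1, 2 and 3. Of the 31 genes, 31, 14 and 9 remained called in the first set of fits and 31, 20 and 11 in the second. Cyp2b10, Cyp2c37, Cyp2c50, Cyp2c54, Gstt3, Ces2a, Tomm40l and Tmem223 were called in each of these 6 fits. The other 23 genes lost their call in at least 1 of them. Over these fits Cyp2b10 ranged from 6.57 to 6.86 and Cyp2c54 from 3.34 to 5.39. No called gene turned its sign under any other setting in which it was tested, 15 to 17 settings a gene, and Cyp2b10 was called in all 17.

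**Figure D5:**
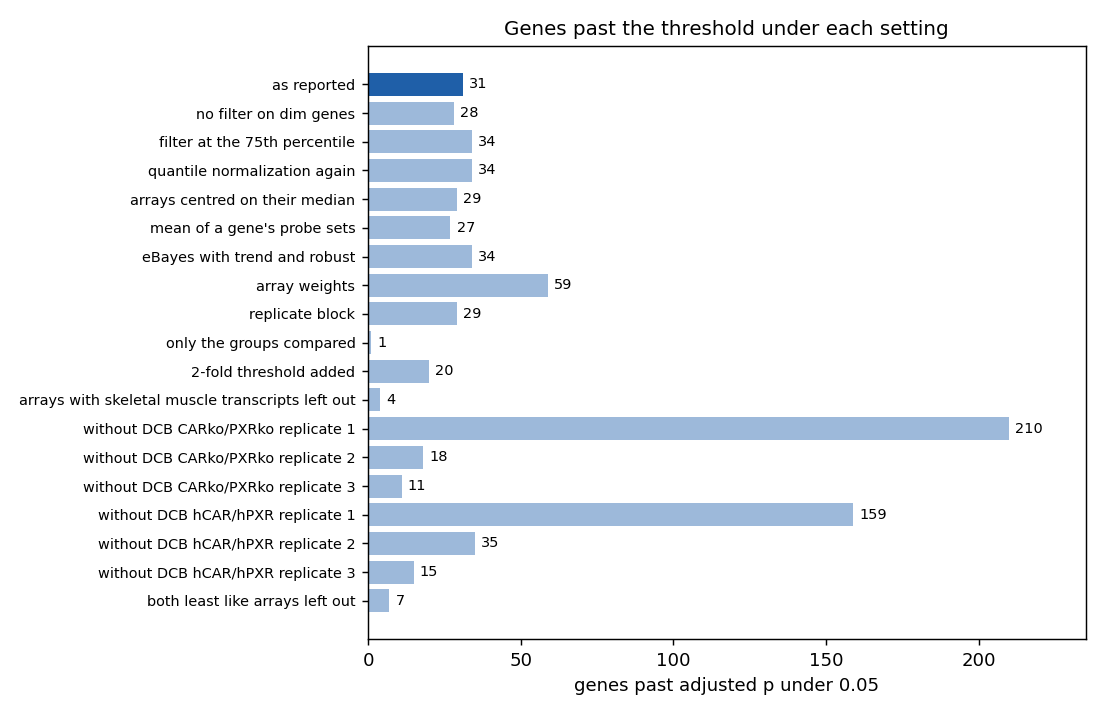
Number of genes past an adjusted p under 0.05 (horizontal axis) in DCB hCAR/hPXR against DCB CARko/PXRko as reported (dark bar, 31) and under each other setting (light bars). The count runs from 1 with only the groups compared to 210 without CARko/PXRko replicate 1, and is between 27 and 34 under other filters and scalings.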

How the data were processed

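Liver RNA was measured on 30 Affymetrix mouse arrays in 10 groups of 3. The deposited values are log2 probe set summaries made by RMA, per the submitters' processing notes; the labels and notes used here do not state its version or settings. Of 45037 probe sets, 34945 had a single gene. For each gene the one with the highest mean over the 30 arrays was used, and 12795 genes were tested, those above the array median on at least 3 arrays.

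With limma 3.58.1 (R 4.3.3; lmFit and eBayes), group means were estimated from the 30 arrays together, leaving 20 residual degrees of freedom, with two-sided Benjamini-Hochberg adjusted p-values called under 0.05, for 4 comparisons: the DCB strains, the corn oil strains, the difference of both, and DCB in wild type. The number of arrays limits precision. On simulated data for the DCB strains with 12795 genes, 76.6% of 200 genes changed 2-fold and 96.4% of those changed 4-fold were recovered. The simulation drew independent noise with the same spread of a gene in every group, and no array held other-tissue transcripts. The real arrays differ in this, so these shares do not give the recovery in the DCB comparison. The fit shares its spread over groups that include arrays with other-tissue transcripts.

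Comparisons, members, gene lists and the rule for named genes were chosen with earlier results of these data known. Named were called, not overlapping genes that were also called without DCB CARko/PXRko replicate 3 (up to 15 each way, markers of other tissues left out), 10 fixed genes, genes called under corn oil or in the difference of effects (up to 5 each way), and genes with the smallest p of each list (up to 4) and marker list (up to 3), of which the text gives a selection. The other called genes and those CYP2C members outside the rule are named after their values were seen. Promoter windows come from RefSeq, GRCm38.p6, and gene order from its gene table, used for names only. Alternatives were other filters, scalings, probe set rules and variance models, the replicate block, fewer arrays and an added 2-fold threshold. Leaving out DCB CARko/PXRko replicate 3 and DCB hCAR/hPXR replicate 3 together was added after seeing the data.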

Additional observations from a re-analysis of the deposited data

Results flagged for a closer look

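Cyp2b10 responded differently in the strains: the DCB effect in hCAR/hPXR exceeded that in CARko/PXRko by 6.76 ± 1.09 (limma, adjusted p = 0.027). Cyp2b10 was not called in this test in 8 of the 12 fits that left out 1 array.

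Probe sets that no single gene is assigned to were left out of the comparisons. Of 3700 such probe sets tested, 1 was called under DCB (0.027%, with 397 at an unadjusted p under 0.05) and 0 under corn oil (limma, with 69 at an unadjusted p under 0.05). It was 1443137_at, which is unnamed here, was 3.42 higher in DCB hCAR/hPXR (adjusted p = 1.5e-05) and differed by −0.21 under corn oil.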

How the results depend on the processing

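For the DCB strains, the 31 calls became 59 with array weights, 1 with only the groups compared, 20 with a 2-fold threshold added, 4 without the arrays with skeletal muscle transcripts and 7 without the array least like its group in both strains, a setting chosen after seeing the data; leaving out each array gave 11 to 210. For the corn oil strains, the 2 calls became 28 with array weights and 4 without the muscle arrays, and leaving out each array gave 2 to 4. For the difference of effects, the 1 call became 3 with a filter at the 75th percentile, 13 with array weights, 2 without the array least like its group in both strains (neither of them Cyp2b10), and 0 with probe sets averaged per gene, with trend and robust eBayes and without the muscle arrays; leaving out each array gave 0 to 9. For DCB in wild type, the 94 calls became 969 with array weights and 37 with a 2-fold threshold added, and leaving out each array gave 37 to 115. The fits with fewer arrays have fewer residual degrees of freedom; other causes were not tested.

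The signs that turned were of genes not called. Without the muscle arrays Cyp1a2 was −0.058, Pdk4 0.062, Acta1 0.13, Sbsn 0.57 and Fabp4 0.23, which leaves CARko/PXRko replicate 1 alone; Star ranged from −2.57 to 0.068 with each array left out in turn, the latter without CARko/PXRko replicate 3, and was 0.13 without the array least like its group in both strains. Over the 65 genes given with values in the text and their settings, 879 values kept direction and side of the threshold, 181 kept direction but were no longer called, 27 became called and 7 turned.

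Replicate numbers did not pair the samples: same-numbered arrays of the DCB strains had correlated deviations of 0.24, −0.20 and 0.06, and 1 of 3 arrays correlated best with its own number. With the replicate block the DCB strains gave 29 calls, the corn oil strains 3, the difference of effects 1 and DCB in wild type 107. Signals under the array medians limit the size of differences for Themis, Dnah1 and P2ry14, and signals near the top of the scale that of Cyp3a11. The ratio of Cyp2b10 rests on CARko/PXRko signals little above the medians.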
